A study of Mus musculus with 2 samples.

Results

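The tendon genes described here were *Tnmd*, *Scx*, *Mkx*, *Comp*, *Fmod*, *Thbs4* and *Cilp2*, 7 of the 19465 genes counted in the series. They were taken by symbol, as a list of names. All 7 were counted in both sections of the study, 1 section of a Control femur and 1 section of a Loaded femur, and their unique molecular identifiers (UMIs, each counting 1 captured molecule) were followed over the spots of the Visium grid. Both femurs came from female bone cell reporter (BCR) mice, in which the osteoblast protein Ibsp and the osteoclast enzyme Acp5 are labelled with fluorescent proteins, so the Control carries the same alleles as the Loaded mouse. A defect of 0.68 mm was cut in the middle of the femoral shaft at 12 weeks of age and held by an external fixator, and after bridging at week 3 the Loaded mouse received cyclic loading through the fixator 3 times per week while the Control mouse received sham-loading. Both femurs were collected 5 weeks after surgery, at 17 weeks of age, as formalin-fixed, paraffin-embedded tissue. With 1 section per group there was no replicate, so no test between Control and Loaded was possible, and every interval given covers counting error only.

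Tendon joins muscle to bone through dense, parallel collagen fibers laid down by tenocytes. Scx, a basic helix-loop-helix transcription factor, and Mkx, a homeobox transcription factor, direct the tendon lineage, and the transmembrane protein Tnmd is a marker of mature tenocytes. The remaining genes encode proteins of the matrix: Fmod is a small leucine-rich proteoglycan that binds collagen fibrils, Comp and Thbs4 are thrombospondins found in tendon and its attachments, and Cilp2 is related to the cartilage intermediate layer protein. *Comp* is also made in large amounts by cartilage, and none of the matrix genes is made by tenocytes alone.

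In the coordinates of GENCODE M21 (GRCm38), *Tnmd* lies at chrX:133850980-133865577, *Scx* at chr15:76457452-76459458 and *Fmod* at chr1:134037254-134048277, all on the plus strand. *Comp* (chr8:70373558-70382066, plus strand) and *Cilp2* (chr8:69880369-69887687, minus strand) share a chromosome. *Thbs4* lies at chr13:92751590-92794818 and *Mkx* at chr18:6934518-7004780, both on the minus strand.

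RefSeq promoter sequences of GRCm38.p6 were at hand for 4 of the 7 genes, *Tnmd*, *Fmod*, *Thbs4* and *Cilp2*. The E-box CANNTG, the letters that basic helix-loop-helix factors such as Scx bind, reads the same on both strands and was searched in the 250 bases before each start site. *Fmod*, *Thbs4* and *Cilp2* each held 1 match and *Tnmd* held 0. Of 32851 promoters of this length, 66.2% held at least 1 match, so that a match is no mark of these genes.

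The promoters of *Fmod* and *Thbs4* are shown because, of the 4 entries, only these windows end before the annotated gene, while those of *Tnmd* and *Cilp2* overlap it. They run 5′ to 3′ up to the base before the start site, with the E-box match in capitals.

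Fmod, GRCm38.p6, chr1:134037004-134037253, plus strand: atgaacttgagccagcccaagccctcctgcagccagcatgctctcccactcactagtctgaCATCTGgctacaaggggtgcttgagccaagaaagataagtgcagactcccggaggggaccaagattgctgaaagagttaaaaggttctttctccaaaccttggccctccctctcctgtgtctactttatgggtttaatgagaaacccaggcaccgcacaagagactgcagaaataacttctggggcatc

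Thbs4, GRCm38.p6, chr13:92794819-92795068, minus strand: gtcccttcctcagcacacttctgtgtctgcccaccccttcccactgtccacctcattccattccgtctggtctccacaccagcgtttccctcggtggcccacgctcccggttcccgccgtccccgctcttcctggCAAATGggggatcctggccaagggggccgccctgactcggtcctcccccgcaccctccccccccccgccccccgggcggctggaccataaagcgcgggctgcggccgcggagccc

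In *Fmod* the match CATCTG began 189 bases before the start site, and in *Thbs4* the match CAAATG began 115 bases before it. The share of G and C in these windows was 51.2% for *Fmod* and 70.8% for *Thbs4*. These are descriptions of letters, and no binding was measured.

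The spots fell into 3 regions: the bone spots that the study listed at the fracture site, a rim of all other spots within 250 μm of a bone spot, and the rest of the section. After removal of spots with fewer than 500 UMIs or 250 genes, the Control section held 131 bone, 253 rim and 1514 rest spots and the Loaded section 146, 264 and 1021. The Control section held 8984212 UMIs over these spots and the Loaded section 4908807, and the median per spot ranged from 2132 to 3478 over the 6 regions. A spot covers several cells, so a level can differ through the number of cells of a type or through the RNA per cell, and these cannot be told apart. A level is the UMI sum of a gene in a region over the sum of the scran size factors there, called normalized count per spot. Markers of some other cells differed between the sections. The 8 osteoblast and osteocyte genes took 0.0897% of the UMIs of Control bone and 0.461% of those of Loaded bone. Of them 7 were at least 2-fold higher in Loaded and 0 lower (median log2 ratio 2.87). The study had reported several of these genes as higher in the same Loaded bone spots, so this count is no independent finding. The 22 skeletal muscle genes took 15.2% of the UMIs of Control bone and 8.04% of those of Loaded bone, and the 7 Schwann cell genes 0.069% and 0.023%. Of the muscle genes 10 were at least 2-fold lower and 0 higher in Loaded bone, and all 5 Schwann cell genes with at least 10 UMIs were lower. Other lists moved less: of 6 endothelial genes 0 passed 2-fold (median 0.27), and of 7 periosteal genes 1 was lower (median -0.83). Of 3 adipocyte genes with at least 10 UMIs 1 was higher, and of 4 such cartilage genes 1 was higher and 1 lower. Over all genes with at least 10 UMIs in bone, 13.2% were at least 2-fold higher in Loaded and 8.11% lower. The part of these marker differences in the results on the tendon genes was not tested.

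Together the 7 genes took 13505 UMIs in the Control section and 7394 in the Loaded section, 0.150% and 0.151% of all UMIs. Nearly all of these were matrix gene UMIs. *Comp*, *Fmod* and *Thbs4* made up 94.0% of them in Control and 93.3% in Loaded, and the lineage genes *Tnmd*, *Scx* and *Mkx* 2.79% and 4.79%. The markers that define tenocytes were therefore detected in both sections, with 377 UMIs in Control and 354 in Loaded, but the sum of the list follows genes that other connective tissue makes as well. Counts are not compared between genes, because each gene was captured by its own probes.

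The matrix genes were not spread evenly over either section. Maps of the sections showed bands and patches of matrix gene UMIs along the outer surface of the bone and at the edge of the tissue, with low values in most spots between. In the Control section 50% of the *Comp* UMIs lay in 111 of 1898 spots, 50% of the *Fmod* UMIs in 103 and 50% of the *Thbs4* UMIs in 103. In the Loaded section the same share lay in 76, 69 and 74 of 1431 spots. Spots also differed in depth, from 504 to 37148 UMIs in Control and from 507 to 22967 in Loaded. The part of depth in these numbers of spots was not tested. *Tnmd* was too sparse to judge its spread this way, because its 108 Control and 146 Loaded UMIs can reach few spots at most. Of each, 50% lay in 29 spots.

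**Figure D1:**
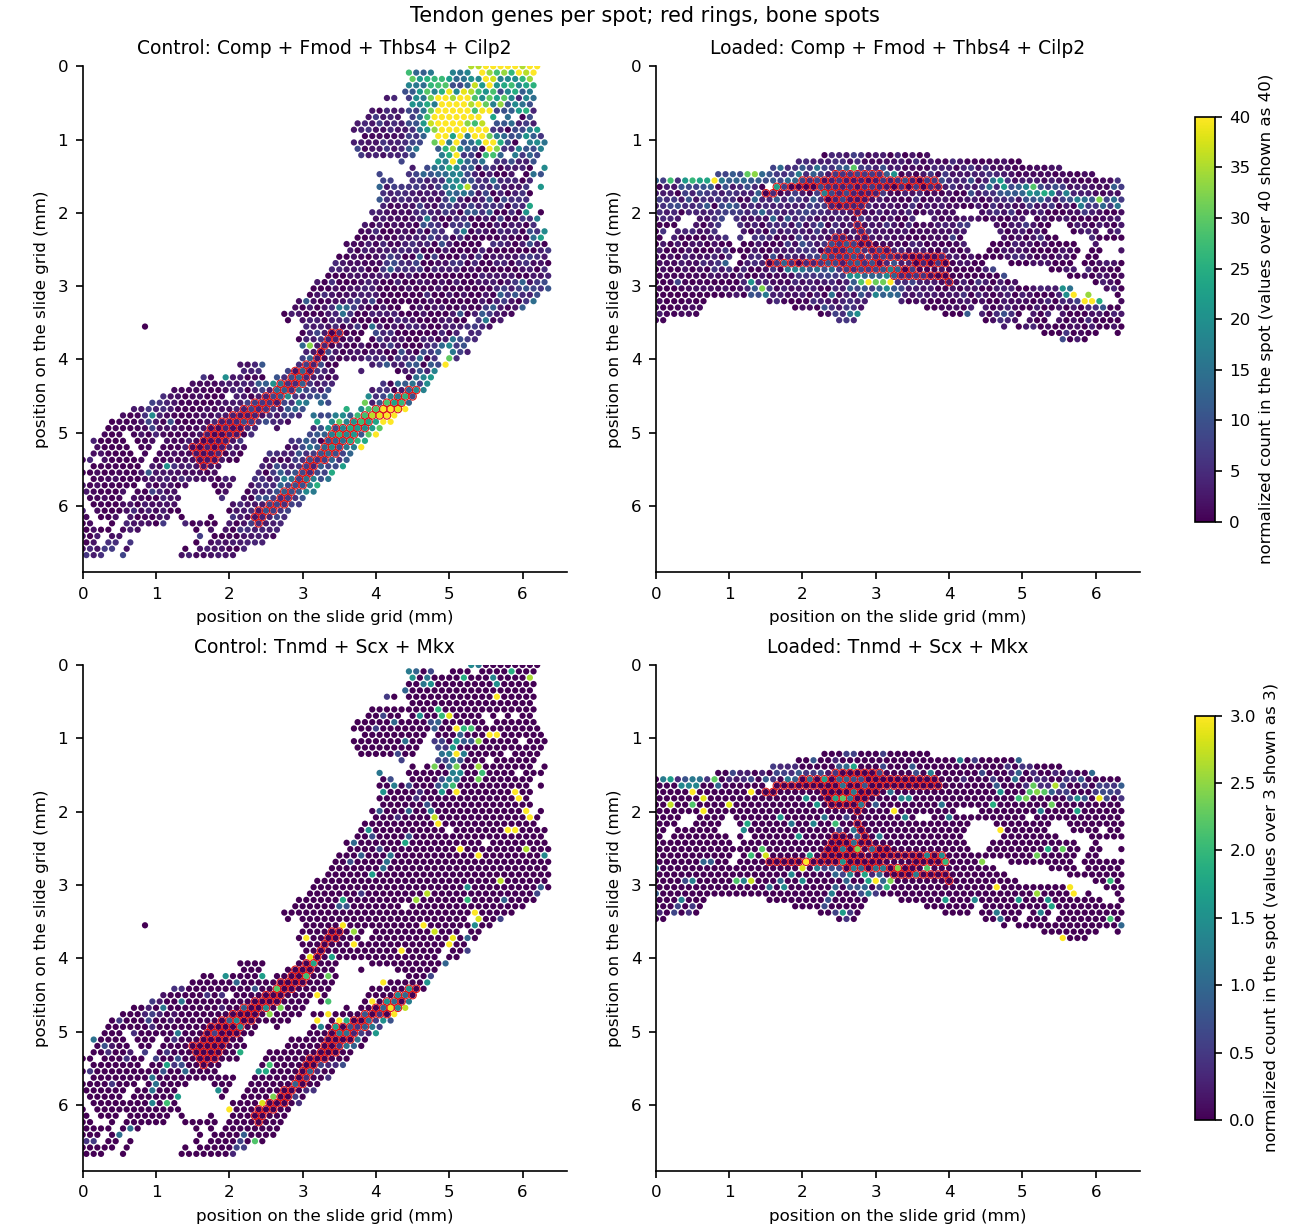
Normalized count in each spot of the Control section (left) and the Loaded section (right), for the sum of *Comp*, *Fmod*, *Thbs4* and *Cilp2* (top) and of *Tnmd*, *Scx* and *Mkx* (bottom), on the slide grid in millimeters, with bone spots ringed in red. High spots line one strand of bone and a distant corner of the Control section, and short outer stretches of the Loaded section.

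Single spots reached high values. In the Loaded section 1 spot, 721 μm from the nearest bone spot, held the highest UMI count of *Tnmd* (7), *Fmod* (37), *Thbs4* (142) and *Cilp2* (6) at once, together with 17 *Comp* UMIs and no *Scx* or *Mkx* UMI. Its total was 8348 UMIs, with a muscle gene share of 7.62%. In Control the highest counts of *Scx*, *Comp*, *Fmod*, *Thbs4* and *Cilp2* lay in different spots. The highest *Thbs4* count (120 UMIs) was in a rim spot 173 μm from bone, the highest *Comp* count (72 UMIs) in a bone spot, and the highest *Cilp2* count (15 UMIs) in a rim spot that also held 70 *Comp* UMIs and 3 *Tnmd* UMIs. That rim spot held 2 *Scx* and 2 *Mkx* UMIs as well. Its *Tnmd* and *Mkx* counts equalled the highest of the section, which other spots also reached.

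The first question was where the tendon genes lay with respect to bone in each section. The lineage genes were sparse in every region. *Tnmd* had 19 UMIs in Control bone, 38 in the rim and 51 in the rest, which gave 0.109, 0.130 and 0.034 normalized counts per spot. In the Loaded section the corresponding UMIs were 9, 49 and 88 and the levels 0.070, 0.155 and 0.096. The rim was thus the highest region for *Tnmd* in both sections, although its 95% interval overlapped that of bone in both. The log2 ratio of rim over bone was 0.25 (-0.58 to 1.12) in Control and 1.15 (0.11 to 2.36) in Loaded. In Control the log2 ratio of rim over bone ranged from -1.61 to 2.09 with single blocks (defined below) dropped.

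*Scx* had 18 UMIs in Control bone, 18 in the rim and 176 in the rest, at levels of 0.104, 0.061 and 0.118. In Loaded, 25, 44 and 105 UMIs gave levels of 0.194, 0.139 and 0.114. The order of the regions differed between the sections, and in each section the intervals of bone and rim overlapped. *Mkx* had 8, 14 and 35 UMIs in Control and 4, 8 and 22 in Loaded, at levels between 0.023 and 0.048, and its regions could not be ordered at this depth.

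Among the matrix genes, *Comp* had 671 UMIs in Control bone, 643 in the rim and 3631 in the rest, at levels of 3.87, 2.20 and 2.43. In Loaded it had 222, 600 and 1032 UMIs, at 1.72, 1.89 and 1.12. Control bone stood above the other regions, an order that turned when 1 block of it was dropped (rim over bone 1.20, rest over bone 1.34), whereas in Loaded the bone and rim intervals overlapped and the rest was lowest.

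*Fmod* had 279, 352 and 1018 UMIs in Control bone, rim and rest, at levels of 1.61, 1.20 and 0.681, and 157, 372 and 655 UMIs in Loaded, at 1.22, 1.17 and 0.711. *Fmod* was lowest in the rest in both sections. *Thbs4* had 927, 1799 and 3377 UMIs in Control, at 5.34, 6.15 and 2.26, and 247, 1179 and 2438 UMIs in Loaded, at 1.91, 3.72 and 2.65.

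For *Thbs4* the rim was the highest region of both sections, with intervals clear of the other regions, but in Control the log2 ratio of rim over bone ranged from -0.74 to 1.03 with single blocks dropped, so this order rested on 1 block of the rim. *Cilp2* had 58, 63 and 310 UMIs in Control, at levels of 0.334, 0.215 and 0.207, and 19, 34 and 85 UMIs in Loaded, at 0.147, 0.107 and 0.092. It had its highest value in bone in both sections, though the bone and rim intervals overlapped. Its log2 ratio of rim over bone was -0.63 (-1.17 to -0.09) in Control and -0.46 (-1.31 to 0.44) in Loaded. In Control its order turned when 1 block of bone, not of the rim, was dropped (rim over bone 1.82, rest over bone 1.76).

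**Figure D2:**
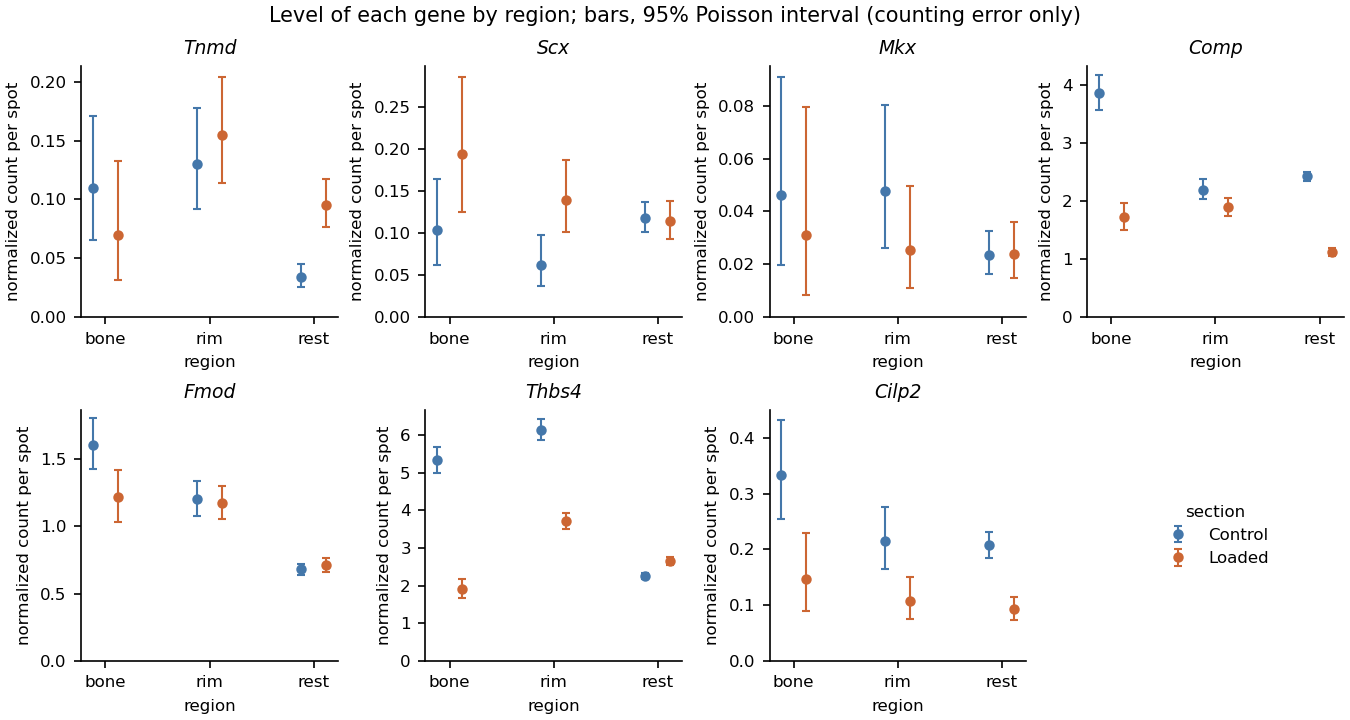
Normalized count per spot of each gene in bone, rim and rest of the Control section (blue) and the Loaded section (orange), with the exact 95% Poisson interval of the summed UMIs. *Thbs4* is highest in the rim of both sections, and *Comp* in Control bone reaches 3.87 against 1.72 in Loaded bone.

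Counted against bone of the same section, few of the genes passed a 2-fold difference. In the Control rim 0 of the 7 genes were at least 2-fold higher and 0 at least 2-fold lower than in bone, where over all genes with at least 10 UMIs 5.78% were higher and 2.59% lower. In the Loaded rim 1 gene, *Tnmd*, was higher (log2 ratio 1.15, 95% interval 0.11 to 2.36) and 0 were lower, with 5.41% and 5.34% over all genes. In the Control rest 3 genes were lower than in bone, beside 12.7% of all genes: *Tnmd* (-1.68), *Fmod* (-1.24) and *Thbs4* (-1.24). None was higher there, beside 11.5% of all genes, and in the Loaded rest 0 were higher and 0 lower, beside 9.75% and 9.84%. Without the Control bone block described below, the ratio of rest over bone turned positive for *Cilp2* (1.76), *Comp* (1.34), *Fmod* (0.54), *Mkx* (0.20) and *Tnmd* (0.16).

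The second question was whether the levels differed between the Loaded and the Control femur. In bone, 6 of the 7 genes had a lower level in Loaded, with a median log2 ratio of -0.65 where the median of all genes was 0.12. At least 2-fold lower were 3 of the 7, *Thbs4* (-1.48, 95% interval -1.69 to -1.28), *Cilp2* (-1.18, -2.01 to -0.41) and *Comp* (-1.17, -1.39 to -0.95), and 0 were 2-fold higher. Over 10003 genes, 8.11% were at least 2-fold lower and 13.2% at least 2-fold higher.

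The other genes stayed under 2-fold. *Fmod* was lower by a smaller amount (-0.40, -0.69 to -0.12). The intervals of *Tnmd* (-0.65), *Mkx* (-0.57) and *Scx* (0.90) included 0, at 9 against 19, 4 against 8 and 25 against 18 UMIs.

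The lower levels of *Comp*, *Cilp2* and *Fmod* in Loaded bone rested on 1 stretch of the Control section. *Thbs4* stayed lower without that stretch, by a smaller amount (-0.65). Each region was cut into 4 blocks, by the long axis and the middle of the bone: the side with the higher share of muscle genes is called muscle-rich and the other muscle-poor, and the ends along the bone are called first and second. The names carry no anatomical meaning, so a block of one section has no known partner in the other. The muscle-poor side at the first end held 44 of the 131 Control bone spots (33.6%), but 577 of 671 *Comp* UMIs (86.0%), 52 of 58 *Cilp2* UMIs (89.7%), 233 of 279 *Fmod* UMIs (83.5%), 16 of 19 *Tnmd* UMIs (84.2%) and 632 of 927 *Thbs4* UMIs (68.2%).

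The levels of the blocks show how uneven the Control bone was. *Comp* was at 7.67, 1.31, 2.40 and 0.490 normalized counts per spot in the 4 Control bone blocks, and at 1.98, 1.18, 1.99 and 1.47 in the 4 Loaded bone blocks. *Thbs4* was at 8.40, 5.69, 2.66 and 1.66 in Control and at 1.66, 1.42, 2.40 and 2.34 in Loaded. *Fmod* was at 3.10, 0.603, 0.799 and 0.332 in Control and at 0.997, 0.558, 1.32 and 1.77 in Loaded, in the order muscle-poor first end, muscle-poor second end, muscle-rich first end and muscle-rich second end.

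For *Comp* and *Fmod* all Loaded blocks lay between the lowest and the highest Control block, and for *Thbs4* the lowest Loaded block lay below them. None of the 7 genes had all 4 Loaded bone blocks below or all above the 4 Control bone blocks, beside 1.94% and 3.84% of all genes. With the muscle-poor first end of Control bone left out, *Comp* was at 222 against 94 UMIs and a log2 ratio of 0.85 (0.49 to 1.21), *Fmod* at 1.38 (0.90 to 1.89) and *Cilp2* at 1.27 (-0.11 to 2.88), so that their direction turned. *Thbs4* kept its direction at -0.65 (-0.90 to -0.40), with 247 against 295 UMIs. *Tnmd* then stood at 9 against 3 UMIs and *Scx* at 25 against 7 (1.44, 0.19 to 2.90).

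**Figure D3:**
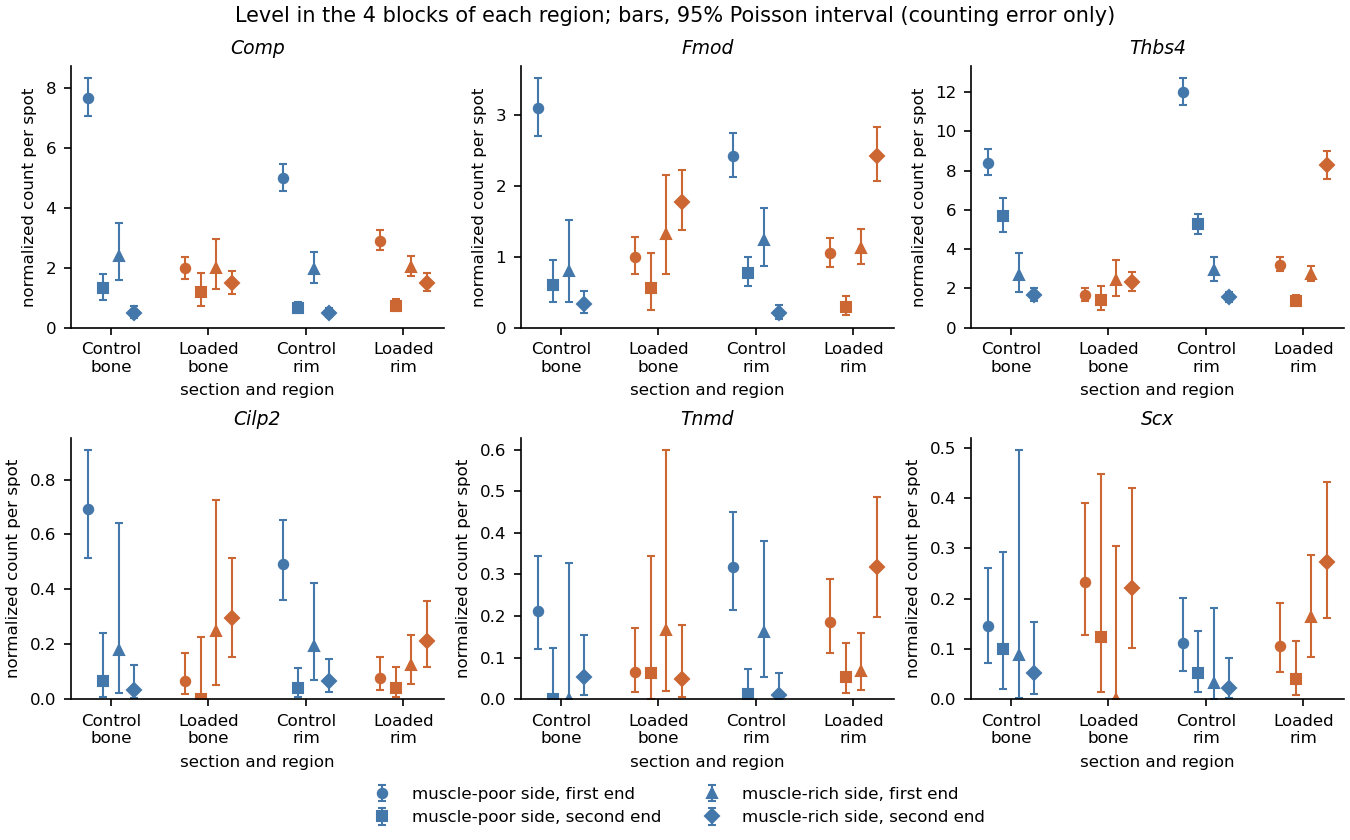
Normalized count per spot in each of the 4 blocks of bone and rim, Control in blue and Loaded in orange, with exact 95% Poisson intervals and 1 marker shape per block. In Control bone and rim the muscle-poor first end (circles) is the highest block of *Comp*, *Fmod*, *Thbs4*, *Cilp2* and *Tnmd*, where *Comp* reaches 7.67 in bone against at most 1.99 in a Loaded bone block.

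Pairing the sides of the bone by their rank in muscle share gave opposite directions for each matrix gene, a comparison chosen after the maps had been seen. Neither side has a known anatomical partner in the other section, so these ratios do not compare matched tissue. On the muscle-poor side, *Comp* had 138 Loaded and 616 Control UMIs (-1.70, -1.97 to -1.43), *Thbs4* 123 and 802 (-2.24, -2.53 to -1.97), *Fmod* 69 and 251 (-1.40, -1.81 to -1.01) and *Cilp2* 4 and 54 (-3.29, -5.22 to -1.85). On the muscle-rich side, *Comp* had 84 Loaded and 55 Control UMIs (0.99, with a lower bound of 0.48), *Fmod* 88 and 28 (2.03, 1.40 to 2.70), *Cilp2* 15 and 4 (2.28, 0.63 to 4.33) and *Thbs4* 124 and 125 (0.36, -0.01 to 0.73). *Scx* was above 0 on both sides, at 0.65 on the muscle-poor and 1.55 on the muscle-rich side, with intervals that included 0. *Tnmd* (-1.22 and 0.79) and *Mkx* (-2.12 and 0.96) differed in direction, but all their intervals included 0. The sides differed in their muscle content as well, which was 6.96% of UMIs on the muscle-poor and 24.2% on the muscle-rich side of Control bone, against 6.67% and 9.84% in Loaded bone.

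Within Control bone the muscle-poor side exceeded the muscle-rich side for each matrix gene, by a log2 ratio of 3.14 for *Cilp2*, 2.87 for *Comp*, 2.55 for *Fmod* and 2.06 for *Thbs4*, all with intervals above 0. In Loaded bone the corresponding values were -2.44, 0.18, -0.88 and -0.54. In Control bone the sides thus differed by more than the sections did for each of these genes.

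The rim gave the same uneven picture. In Control, 1174 of 1799 *Thbs4* UMIs (65.3%), 489 of 643 *Comp* UMIs (76.0%) and 31 of 38 *Tnmd* UMIs (81.6%) lay in the 59 rim spots of the muscle-poor first end, 23.3% of the rim. In Loaded, 545 of 1179 *Thbs4* UMIs (46.2%) and 21 of 49 *Tnmd* UMIs (42.9%) lay in the 55 rim spots of the muscle-rich second end, 20.8% of the rim, but only 98 of 600 *Comp* UMIs (16.3%). The block of most *Comp* in the Loaded rim was the muscle-poor first end, with 299 UMIs (49.8%) in 42 spots.

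Between the sections, 1 of the 7 genes was at least 2-fold higher in the Loaded rim, beside 7.42% of all genes, and 1 at least 2-fold lower, beside 6.58%. The higher gene was *Scx* (1.17, 0.35 to 2.05), with 44 Loaded and 18 Control UMIs. The lower gene was *Cilp2* (-1.01, -1.65 to -0.38), which turned to 0.48 without the muscle-poor first end of the Control rim. *Thbs4* was at -0.72 (-0.83 to -0.62), *Comp* at -0.22 and *Fmod* at -0.04. Without the same Control block these too were above 0, at 0.21 (0.07 to 0.36) for *Thbs4*, 1.26 (1.00 to 1.53) for *Comp* and 0.99 (0.69 to 1.31) for *Fmod*. Leaving out a high block of the Loaded rim moved them the other way. Without its muscle-rich second end *Thbs4* was at -1.28 (-1.42 to -1.15) and *Fmod* at -0.51 (-0.76 to -0.26). Without its muscle-poor first end *Comp* was at -0.64 (-0.85 to -0.44).

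*Scx* stayed above 0 whichever block was dropped, at 0.59 to 1.44 in bone and 0.75 to 1.95 in the rim. On the muscle-poor side alone its rim ratio was -0.14 (-1.30 to 1.01), on 14 and 15 UMIs, and on the muscle-rich side 3.10 (1.42 to 5.46), on 30 and 3 UMIs. In bone its 25 and 18 UMIs gave an interval that included 0.

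**Figure D4:**
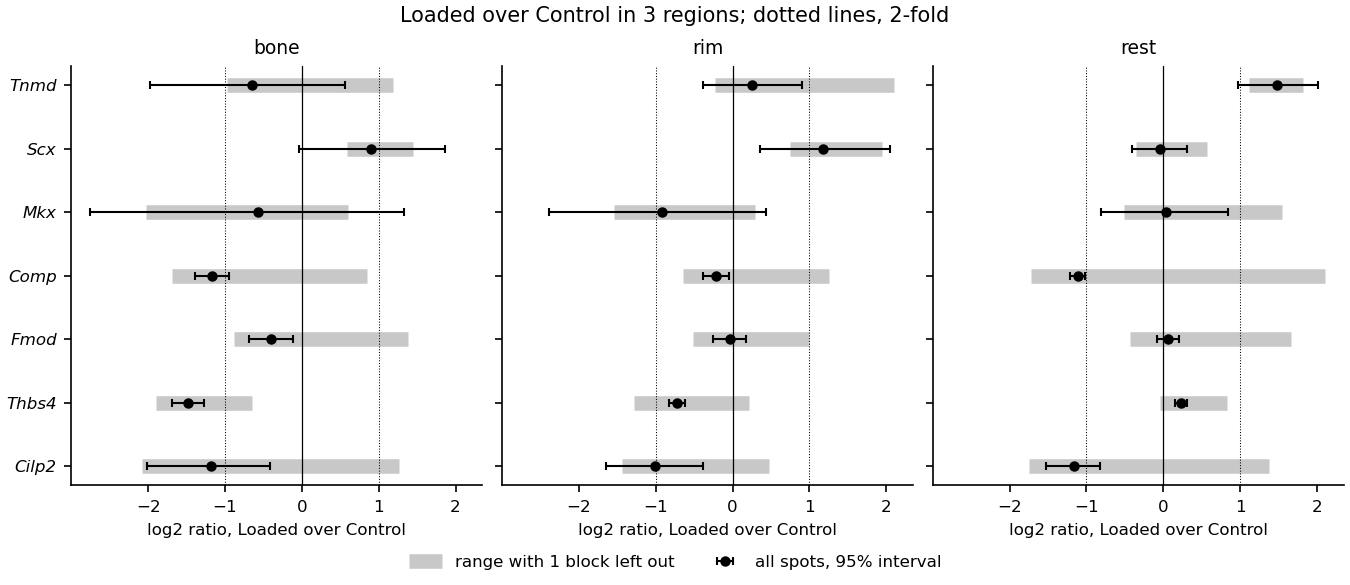
Log2 ratio of Loaded over Control for each gene in bone, rim and rest, with the exact conditional binomial 95% interval (black) and the range of the ratio when any 1 block is left out (gray). The gray bars of *Comp*, *Fmod* and *Cilp2* cross 0 in all 3 regions, and that of *Tnmd* in the rest stays above 1. In the rest, the muscle-rich first end of Control alone held 73.5% of the Control spots.

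In the rest of the section 1 gene was at least 2-fold higher in Loaded, beside 6.78% of all genes, and 2 were at least 2-fold lower, beside 5.6%. The higher gene was *Tnmd* (1.49, 0.97 to 2.01), with 88 UMIs in 63 of 1021 Loaded spots and 51 UMIs in 44 of 1514 Control spots. Dropping single blocks moved it from 1.12 to 1.81. The lower genes were *Cilp2* (-1.17, -1.53 to -0.82) and *Comp* (-1.12, -1.22 to -1.02). Neither kept its direction when the muscle-rich first end of the Control rest was left out (1.38 and 2.10). That block was most of the region, with 1113 of 1514 Control rest spots (73.5%). It held 94.7% of the *Comp* and 91.6% of the *Cilp2* UMIs of the Control rest.

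The rest of the sections was not the same tissue. The Control rest reached past 3000 μm from bone and the Loaded rest did not. Its 270 spots over 3000 μm away held 2137 of the 4945 *Comp* UMIs of the Control section (43.2%) at a level of 14.8, 151 of 431 *Cilp2* UMIs (35.0%) and 408 of 1649 *Fmod* UMIs (24.7%). *Tnmd* had only 11 UMIs there.

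Cartilage genes moved with this corner of the section. The 12 cartilage genes took 0.433% of its UMIs, against 0.083% at 2000 to 3000 μm and 0.004% in the rest spots within 1000 μm of bone. Spots in which they took at least 0.5% numbered 98 in Control, all in the rest, and 0 in Loaded. Of the 98, 61 lay over 3000 μm from bone and 37 at 2000 to 3000 μm. These 98 spots held 421 of 4945 *Comp* UMIs (8.51%), 2 of 108 *Tnmd* and 74 of 6103 *Thbs4* UMIs. For cartilage genes with at least 30 Control UMIs the share in them ran from 10.8% (*Sox9*) to 66.6% (*Col2a1*). These are genes of the list that picked the spots. The larger part of the *Comp* UMIs of that corner lay outside the spots picked at this cut, as did most *Acan* and *Sox9* UMIs of the section. Whether cartilage was a source of those *Comp* UMIs was not tested.

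Within 1000 μm of bone, where both sections had rest spots (538 in Control and 565 in Loaded), *Comp* and *Cilp2* turned in direction. *Comp* was at 1.23 in Loaded and 0.520 in Control (log2 ratio 1.24), and *Cilp2* at 0.093 and 0.061 (0.60). *Fmod* was at 0.799 and 0.376 and *Thbs4* at 3.10 and 1.80, both with a ratio above 0 as over the whole rest (0.06, with an interval that included 0, and 0.23). *Tnmd* was higher in Loaded at this distance as well, at 0.083 (0.059 to 0.112) against 0.044 (0.030 to 0.063), although the intervals overlapped.

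Levels of the matrix genes were also followed by distance from bone. Outside the bone, *Comp* in Control went from 2.34 in the first 250 μm to 0.445 between 250 and 500 μm and 0.510 between 500 and 1000 μm, and *Fmod* from 1.31 to 0.389 and 0.364. *Thbs4* went from 6.59 to 1.69 and 1.74. In Loaded the same bins went from 2.29 to 1.37 and 1.11 for *Comp*, from 1.43 to 0.806 and 0.875 for *Fmod* and from 4.73 to 3.00 and 3.61 for *Thbs4*. *Cilp2* went from 0.230 to 0.069 and 0.050 in Control and from 0.126 to 0.079 and 0.127 in Loaded, so that no steady decline was seen in the Loaded section.

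In Control, bone and the first 250 μm outside it were above both farther bins for each of these genes, whereas in Loaded the *Thbs4* level of bone (1.91) was below all 3 bins. Rim spots enclosed between bone spots on both transverse sides were lower than those outside. In the Loaded rim *Thbs4* was at 1.36 in 107 enclosed spots and 4.73 in 157 outside spots, a log2 difference of 1.80 (1.53 to 2.08), and *Fmod* differed by 1.30 (0.89 to 1.74) and *Comp* by 1.26 (0.93 to 1.60). In the Control rim the outside excess was 0.59 for *Thbs4* (0.40 to 0.79), 0.75 for *Fmod* (0.30 to 1.24) and 0.55 for *Comp* (0.23 to 0.88). *Tnmd* was higher outside in Loaded (1.36, 0.19 to 2.76), while in Control its interval included 0, and that of *Scx* included 0 in both sections.

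**Figure D5:**
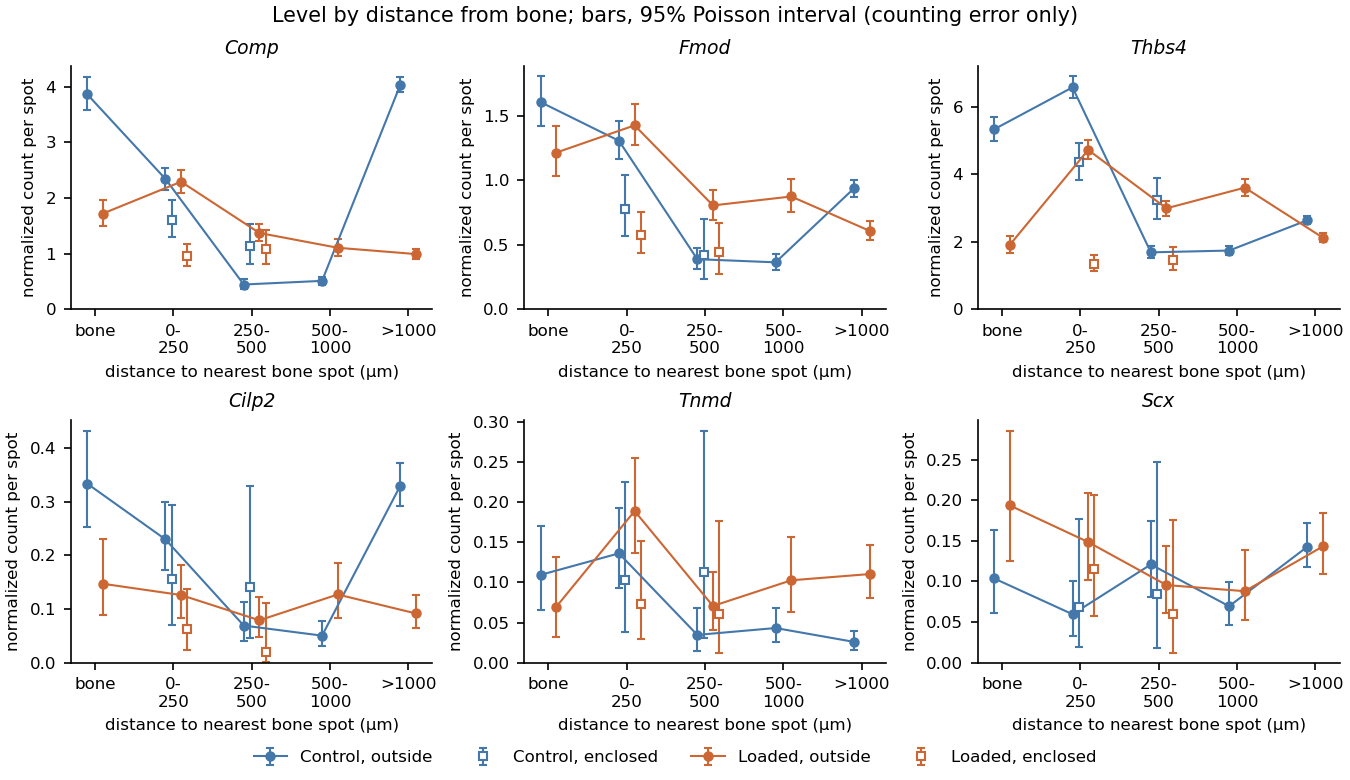
Normalized count per spot in bone and in 4 bins of distance to the nearest bone spot in micrometers, Control in blue and Loaded in orange, with exact 95% Poisson intervals, filled circles for spots outside and open squares for spots enclosed between bone spots. *Comp*, *Fmod* and *Cilp2* drop beyond 250 μm in Control and are high again beyond 1000 μm, where the Control section includes the distant corner.

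Levels were also compared by the muscle content of the spots. In Control spots with a muscle gene share of 20% or more, *Comp* was at 0.754 (0.704 to 0.806), against 5.52 (5.26 to 5.79) where the share was 5 to 10%, and *Fmod* at 0.362 against 1.69. *Scx* changed little by this measure, at 0.091 (0.074 to 0.110) and 0.131 (0.093 to 0.179). In Loaded, *Comp* was at 0.373 and 1.67 in the same bins and *Scx* at 0.130 and 0.107, so that *Scx* UMIs were found in muscle-rich spots at a level like that elsewhere. For *Thbs4* (2.29 and 2.78) and *Fmod* (0.635 and 0.896) the Loaded difference was smaller than in Control.

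Shares of spots with a UMI were compared after every spot was thinned to 1000 UMIs, with shallower spots left out. *Thbs4* was then found in 67.2% of 131 Control bone spots (exact 95% interval 58.4 to 75.1%) and in 42.7% of 131 Loaded bone spots (34.1 to 51.7%), against 29.2% of Control and 32.5% of Loaded muscle spots, which are rest spots with a muscle gene share of at least 10%. Unthinned, the bone shares were 90.8% and 69.2%. *Comp* was found in 48.9% of Control and 38.9% of Loaded bone spots after thinning, and *Fmod* in 28.2% and 25.2%, with overlapping intervals. For *Comp* this overlap was not kept at the other setting. Thinned to 500 UMIs with every spot kept, *Comp* was found in 36.6% (28.4 to 45.5%) of Control and 20.5% (14.3 to 28.0%) of Loaded bone spots. Each thinning was a single random draw, and 15 Loaded bone spots had been left out at 1000 UMIs. Depth and spots thus changed together, and the part of each was not tested. The *Fmod* intervals overlapped at that depth too.

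For the lineage genes, thinned to 1000 UMIs, the intervals of bone and muscle spots overlapped. *Scx* was found in 6.87% (3.19 to 12.6%) of Control and 7.63% (3.72 to 13.6%) of Loaded bone spots, against 2.80% and 3.04% of muscle spots. The share for *Tnmd* was 3.82% in Control bone and 2.29% in Loaded bone, beside 0.667% and 2.32% where muscle genes were high. The median depth before thinning was 3478 and 2621 UMIs in bone and 5226 and 3387 in muscle spots.

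Most spots held few of the genes together. At least 1 of the 7 was found in 1549 of 1898 Control spots and 1111 of 1431 Loaded spots, at least 4 in 229 and 138, and all 7 in 2 and 3. *Tnmd*, *Scx* and *Mkx* were found together in 3 spots of each section, and at least 1 of them in 271 and 242 spots. The spots with at least 5 of the genes had a median of 5493 UMIs in Control and 7077 in Loaded, above the section medians of 2289 and 2638, so depth moved with the number of genes found.

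The spots that held a lineage gene UMI also held more matrix gene UMIs per unit of size factor. In the Control rim, *Comp* was at 4.98 (4.48 to 5.51) in 39 spots with a *Tnmd*, *Scx* or *Mkx* UMI and 1.26 (1.12 to 1.42) in 214 spots without, and *Thbs4* at 11.6 (10.8 to 12.4) and 4.31 (4.04 to 4.59). In the Loaded rim *Comp* was at 2.62 and 1.52 and *Thbs4* at 6.02 (5.57 to 6.50) and 2.54 (2.33 to 2.76), in 57 and 207 spots. Loaded bone was an exception, with *Comp* at 1.74 (1.32 to 2.25) in 30 spots with and 1.71 (1.46 to 1.99) in 116 spots without a lineage gene UMI, and *Fmod* at 1.14 and 1.24. These spots differed in depth, with a median of 5606 against 2065 UMIs in the Control rim and 2896 against 2553 in Loaded bone.

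Across all spots of a section, which share a library, a size factor scale and neighboring tissue, the matrix genes went together more closely than the lineage genes. Pearson's r of log2(normalized count + 1) was 0.454 in 1898 Control spots and 0.316 in 1431 Loaded spots for *Comp* and *Fmod*, and 0.409 and 0.360 for *Fmod* and *Thbs4*. A *Thbs4* UMI was found in 515 of the 669 Control spots with *Fmod* (77.0%) and 349 of the 464 Loaded spots (75.2%), and an *Fmod* UMI in 44.9% and 41.3% of the *Thbs4* spots. For *Comp* and *Cilp2* the correlation was 0.407 in Control and 0.183 in Loaded. Of the lineage genes, *Tnmd* was closest to *Fmod* (0.155 and 0.241), and the correlation of *Scx* with *Mkx* was -0.00469 and 0.0859. At these counts the low values describe sparse data.

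The genes whose spots were most like the sum of the 7 were found by the lower of the correlations in the 2 sections, among 7119 other genes with at least 100 UMIs in each. They were *Mgp*, an inhibitor of mineralization (0.444 in Control and 0.455 in Loaded), *Col3a1*, fibrillar collagen III (0.471 and 0.425), *Sparc*, a collagen-binding matrix protein (0.503 and 0.372), *Fn1*, fibronectin (0.546 and 0.366), *Col1a1*, the main collagen of bone and tendon (0.530 and 0.363), and *Mmp2*, a matrix metalloproteinase (0.328 and 0.337). *Mgp* also ranked first for *Tnmd*, *Fmod* and *Thbs4* taken alone, *Sparc* for *Comp*, *Thbs2* for *Cilp2* (0.210 and 0.194) and *Col6a3* for *Scx* (0.112 and 0.105). In bone their Loaded over Control ratios went both ways: *Mgp* was at -1.56 and *Fn1* at -0.74, but *Col1a1* at 1.46 and *Sparc* at 0.68.

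Values in both directions were also seen among 32 other matrix genes associated with tendon, of which 31 had at least 10 UMIs in bone. In bone 7 were at least 2-fold lower in Loaded and 4 at least 2-fold higher, with a median of -0.37, beside 8.11% and 13.2% of all genes. The higher ones included the bone collagens *Col1a2* (1.76) and *Col1a1* (1.46), the lowest was *Chad*, a leucine-rich matrix protein of cartilage and tendon (-2.66), and *Cilp*, the relative of *Cilp2*, was at -1.29. In the rim 5 were lower and 0 higher (median -0.25), beside 6.58% and 7.42% of all genes, and in the rest 2 were lower and 1 higher (median 0.14), beside 5.6% and 6.78%.

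Of 19 genes known as regulators of tendon development or growth, 13 had enough UMIs in bone, of which 2 were at least 2-fold lower and 1 higher, *Tcf7l2*, on 12 Loaded and 6 Control UMIs and named after its value was seen. Among those with at least 30 UMIs the TGF-β ligand *Tgfb3* was at -1.21, with 59 Loaded and 183 Control UMIs, and *Tgfb1* at 0.92, with 132 and 94. Of 12 genes of fibroblasts and the tendon sheath, 3 were lower in bone and 0 higher (median -0.78), from *Fbln1* at -1.63 to *Dpt* at 0.23, and the shares over all genes in bone given above apply to these lists too. In the rest 0 of the fibroblast genes passed 2-fold (median 0.36). In the Control section 23 of the 31 tendon-associated matrix genes and 6 of the 12 fibroblast genes were at least 2-fold lower in the rest than in bone, beside 12.7% of all genes, and in Loaded 11 and 0, beside 9.84%.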

How the data were processed

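Visium libraries of 1 Control and 1 Loaded femoral section were used, with probes read on paraffin-embedded tissue. The authors ran Space Ranger 2.0.0 (file header), with the mm10 build named in the submitters' processing notes, and the deposited values were raw UMI counts per gene and spot. The bone barcodes came from the study's own list. The 7 genes and all gene lists were chosen with earlier results of these data known. Spots with at least 500 UMIs and 250 genes were kept. Size factors came from scran 1.30.0 (R 4.3.3) over all kept spots of both sections. Levels carry exact Poisson intervals, ratios exact conditional binomial intervals and shares exact binomial intervals, all at 95% and for counting error only, computed in Python 3.11.15 with scipy 1.17.1. Spots of 1 section are not replicates, so the study's spot-level DESeq2 test was not repeated and no p-value is given. A gene was counted as higher or lower from 2-fold, with at least 10 UMIs over the regions compared. The 557 barcodes found in both sections are positions of 1 shared barcode set. All 7 genes are named throughout. Genes most like them were the 6 with the highest lower correlation over both sections, with the 3 most like each gene ranked likewise, and lists are given by counts, median and extreme genes with at least 30 UMIs. Alternatives covered size factors (library totals, totals without muscle genes, TMM in edgeR 4.0.16), spot weights and filters, muscle content, rim width, thresholds and left-out blocks. The sides of the bone, enclosed rim spots, the 1000 μm limit and the removal of cartilage-rich spots were added after the data were seen. The ratio code was tested on simulated data. Of the 19465 genes 99.9% were found in GENCODE M21.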

Additional observations from a re-analysis of the deposited data

How the results depend on the processing

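With 1 section per group, no setting replaces a replicate, and the anatomical side of each block was not given in the sources used here. No paired analysis was possible because each group has 1 sample and the groups share fewer than 2 replicate numbers.

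The number of the 7 genes past 2-fold between Loaded and Control was 3 in bone, 2 in the rim and 3 in the rest. In bone it was within 1.5 times under 8 of 11 alternatives, a measure that leaves out direction. On the muscle-rich side alone the genes past 2-fold were all higher: *Scx* (1.55, with an interval that included 0), *Fmod* (2.03) and *Cilp2* (2.28). The number became 5 in spots with a muscle share below 5% (all lower), 5 at a 1.5-fold threshold (1 higher, 4 lower) and 5 on the muscle-poor side alone (all lower). In the rim, with 1 higher and 1 lower, it was 1 higher with library totals, with totals without muscle genes and outside the enclosed spots, 1 lower with equal weight for every spot and with a rim of 350 μm, 6 lower at a muscle share below 5%, 1 higher and 3 lower (4) at 1.5-fold, 4 lower on the muscle-poor side and 5 higher on the muscle-rich side. In the rest it was 1 higher with library totals and without muscle genes. For rim over bone in Control, 0 became 2 at a muscle share below 5%, 1 with a rim of 350 μm and 3 at 1.5-fold. In Loaded, 1 became 2 with TMM and at 1.5-fold, and 0 with equal weight, a muscle share below 5% and a rim of 350 μm. For rest over bone in Control, 3 became 6 with library totals, without muscle genes, at a muscle share below 5% and at 1.5-fold. In Loaded, 0 became 2 with library totals, 1 with equal weight and 4 at 1.5-fold. With 1 block left out at a time the counts ranged from 2 to 4 in bone, 1 to 3 in the rim, 1 to 5 in the rest, 0 to 6 and 0 to 2 for rim over bone in Control and Loaded, and 2 to 6 and 0 to 2 for rest over bone. Directions turned within these ranges. Without the muscle-poor first end of Control bone the genes past 2-fold in bone were all higher: *Scx* (1.44), *Fmod* (1.38), *Cilp2* (1.27) and *Tnmd* (1.19). The intervals of the last named, *Cilp2* and *Tnmd*, included 0. In the rest 5 were higher and 0 lower without the muscle-rich first end of Control, a block with 73.5% of the Control rest spots. For rim over bone in Control, 6 were lower without the muscle-poor first end of the rim and 6 higher without that of bone. The shares over all genes given above belong to the main setting, so the counts under these alternatives have no such share beside them. The cause of these shifts was not tested.

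Among the directions that turned were these. Without the muscle-poor first end of Control bone, Loaded over Control was 0.85 for *Comp*, 1.27 for *Cilp2*, 1.38 for *Fmod*, 1.19 for *Tnmd* and 0.61 for *Mkx*, rest over bone in Control was 0.16 for *Tnmd*, 0.54 for *Fmod*, 1.34 for *Comp* and 1.76 for *Cilp2*, and rim over bone 1.20 for *Comp*, 1.36 for *Fmod* and 1.82 for *Cilp2*. Without the muscle-poor first end of the Control rim, *Thbs4* was -0.74 in rim over bone, and Loaded over Control in the rim was 0.21 for *Thbs4*, 1.26 for *Comp* and 0.99 for *Fmod*. On the muscle-rich side of bone alone it was 0.99 for *Comp*, 0.36 for *Thbs4* and 2.28 for *Cilp2*. In the rim *Cilp2* was 0.48 without the muscle-poor first end of Control and 0.72 on the muscle-rich side, and *Scx* -0.14 on the muscle-poor side. In the rest *Comp* was 2.10 and *Cilp2* 1.38 without the muscle-rich first end of Control, and 1.24 and 0.60 within 1000 μm of bone. The lowest values with 1 block left out were -1.68 for *Comp* and -2.08 for *Cilp2* in bone. In the rim they were -1.43 for *Cilp2*, -1.28 for *Thbs4*, -0.64 for *Comp* and -0.51 for *Fmod*. In the rest they were -1.72 for *Comp* and -1.74 for *Cilp2*, and in rest over bone in Control -2.01 for *Tnmd* and -2.83 for *Fmod*. The *Tnmd* ratio of rim over bone in Loaded was -0.635 at a muscle share below 5%. The depth limits *Mkx* most, with 57 and 34 UMIs per section.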
